A study of Tachycineta bicolor with 30 samples.

Results

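The transcripts described here encode the respiratory chain and ATP synthase of mitochondria, in the brains of free-living adult female tree swallows. Members were the rows of the deposited expression table whose protein title names NADH dehydrogenase (ubiquinone), NADH-ubiquinone oxidoreductase, succinate dehydrogenase, cytochrome b-c1, a cytochrome c oxidase subunit or ATP synthase. This gave 84 of 19478 rows. A search for all these names, with NADH dehydrogenase spelled only with brackets, found 43. Its spelling with a comma added 38 and that with parentheses added 3. Complex I held 42 rows, complex II 7, complex III 6, complex IV 11 and complex V 18. By their titles 68 rows were subunits and 16 were assembly or supercomplex factors. Symbols were assigned from the titles, and 78 names covered the 84 rows because 5 genes had more than 1 row. The titles of SDHC, COX8A, COX4I2, COX6A2, COX7A1 and NDUFA4L2 were not among the members. CYC1, the cytochrome c1 of complex III, was measured but was not a member, and is counted below with the electron carriers.

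The females were trapped in their nest boxes at 2 breeding stages. During territory establishment (TE) they were fighting for nest sites and carried small white follicles, and during incubation (INC) they sat on completed clutches. No treatment was given, the birds were wild and of no defined strain, and stage was therefore joined with date and with everything else that changed over the season. From each female the ventromedial telencephalon (VmT, a strip that takes in nucleus taeniae), HYPO (the hypothalamus with the preoptic area) and the hindbrain (HB) were cut out by hand, so each sample was a mix of cell types. The table held 27 libraries, 4 of TE and 5 of INC in each region. In bulk tissue, fewer cells of a type and less RNA per cell cannot be told apart.

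Complex I takes electrons from NADH and complex II takes them from succinate, and both hand them to ubiquinone. Complex III passes them to cytochrome c, and complex IV, cytochrome c oxidase, passes them to oxygen. Complexes I, III and IV pump protons across the inner membrane, and complex V, ATP synthase, makes ATP as the protons flow back through its ring of c subunits. Neurons draw most of their ATP from this chain to restore ion gradients after firing. Most subunits are encoded in the nucleus, while the catalytic cores of complexes I, III and IV and parts of complex V also need subunits encoded in mitochondrial DNA. Among the members only MT-CO1, the catalytic subunit of complex IV, was mitochondrially encoded.

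Reads were recovered by dividing each library's column by its smallest non-zero value. They summed to between 6001315 and 13710385 over the 27 libraries, with a median of 8308433. These are sums over the deposited rows, and the paper reports more mapped read pairs per sample. Values are normalized counts, in which a library's reads were scaled by its single size factor but not by transcript length. Levels were therefore compared between libraries. Means of different rows were ranked only to choose rows to name or to set apart as sparsely read. All 8 measured hindbrain genes were called higher in the HB than in the VmT and than in the HYPO, and 7 of 10 telencephalon genes were called higher in the VmT than in either. Of 8 hypothalamus genes, 6 were called higher in the HYPO than in the HB but only 3 higher than in the VmT, with 1 lower, and the list's score overlapped between the HYPO (4.75 to 6.48) and the VmT (4.03 to 5.46). For 1 VmT library of TE the labels name different females, and it appears below as the unresolved VmT library. Among them is the female that the study left out, for low RNA integrity in her HB and HYPO and for deviating strongly from the rest. Values of a group are given in the order of females 85674, 85689, 85691 and 85694 for TE, with the unresolved library in the place of 85691 in the VmT, and of females 85757, 85774, 85840, 85889 and 85899 for INC.

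Of the 84 members, 65 had a mean of at least 50 normalized counts over all libraries, and all 84 passed the filter on low values, which asked for 1 normalized count or more in 4 or more libraries. The remaining 19 were read sparsely, among them rows for central subunits. The rows of ATP5F1A and ATP5F1B, the alpha and beta subunits of the catalytic head of ATP synthase, had means of 2.62 and 19.4. Those of COX4I1, the main form of cytochrome c oxidase subunit 4, and SDHB, the iron-sulfur subunit of complex II, had means of 14.0 and 2.16. These are levels of those rows and not of the genes, since other transcripts of the same genes may be listed under other titles.

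Stages were compared within each region, as TE minus INC, on log2 of the normalized count plus 1. A log2 fold change below 0 is therefore higher during incubation. Adding 1 before the logarithm shrinks the fold changes of sparsely read rows. A member was called when its limma p-value, adjusted over all 19473 rows tested, was at most 0.05.

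In the VmT, 7 of the 84 members were called higher during incubation and 0 were called higher during territory establishment. Over all rows 3.1% were called higher during incubation and 0.426% during territory establishment, 3.53% in all. Of the 7, 4 were subunits of complex I, and complexes III, IV and V gave 1 each, while complex II gave 0. The median log2 fold change of the 84 was -0.06, against 0.01 over all rows.

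NDUFV1, the complex I subunit that takes electrons from NADH, had 198, 194, 137 and 279.8 normalized counts in the 4 VmT libraries of TE and 351, 276, 357, 821 and 577 in the 5 of INC. The highest library of TE lay just above the lowest of INC, and female 85889 had the highest value. The means were 202 ± 58.9 (SD, n = 4) and 477 ± 223 (SD, n = 5), and the log2 fold change by limma was -1.16 (adjusted p = 0.00927, standard error 0.26).

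NDUFS8, an iron-sulfur subunit that passes electrons on towards ubiquinone, had 90.5, 98.4, 112 and 141 during TE and 202, 135, 173, 266 and 206 during INC. Here too 1 library of INC fell below the highest of TE. The log2 fold change was -0.81 (standard error 0.17, limma adjusted p = 0.00559).

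NDUFB11, an accessory subunit of the membrane arm, had the largest change of the 7, with 40.1, 46.4, 27 and 78 during TE, 96.4, 54.1, 89.2, 185 and 176 during INC and a log2 fold change of -1.27 (limma adjusted p = 0.0154). Female 85694 during TE exceeded female 85774 during INC.

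UQCRQ, a small subunit of complex III, was the only member whose 4 and 5 VmT libraries did not overlap, which 3.07% of all rows did in the same direction and 1.31% in the other. It had 359, 351, 374 and 399.7 during TE and 665, 451, 436, 574 and 438 during INC (log2 fold change -0.45, limma adjusted p = 0.0226). COX5B, a nuclear subunit on the matrix side of cytochrome c oxidase, had 578, 752, 607 and 806 against 1156, 752, 773, 1291 and 1019 (log2 fold change -0.52, limma adjusted p = 0.0257). The values of COX5B overlapped, since females 85774 and 85840 of INC lay below female 85694 of TE.

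The c ring of ATP synthase is built from copies of subunit c, which in mammals 3 genes encode with the same mature protein. ATP5MC2 had 69.97, 73.3, 55.8 and 171 during TE and 230.0, 108, 139.5, 248 and 198 during INC, and was called (log2 fold change -1.07, limma adjusted p = 0.018). ATP5MC1 had a log2 fold change of -0.61 and was not called (limma adjusted p = 0.164), and ATP5MC3 had 0.24 (limma adjusted p = 0.307). ATP5MC3, with 2195 ± 74.9 during TE (SD, n = 4), and NDUFA6, with 0.22, had the largest differences towards TE among members with a mean of at least 50, and neither was called.

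Some markers of other tissue and cell types differed between the VmT libraries of the stages, and their part in the calls was not tested. The score of thalamus and midbrain genes (24 measured, mean log2 value) was 4.97, 4.41, 6.24 and 6.01 in the VmT libraries of TE and between 6.24 and 6.57 in those of INC, and 4 of the 24, SOX14, GATA3, LHX5 and SHOX2, were called higher during incubation. Astrocyte genes (8 measured) summed to between 27582 and 32339 normalized counts during TE and 32747 and 38807 during INC without overlap. Their scores overlapped, at 10.93 to 11.30 during TE and 11.28 to 11.57 during INC. The mean oligodendrocyte score was 8.09 and 8.53, and its libraries overlapped too (7.94 to 8.31 and 8.20 to 8.86). When the fit included the thalamus and midbrain score, calls over all rows dropped from 687 to 104 and 0 members were called. The score nearly followed stage in the VmT, so this fit cannot tell score from stage, and nothing is concluded from the lost calls. In that fit the log2 fold changes of NDUFV1 (-1.22, limma adjusted p = 0.0917) and NDUFB11 (-1.38, limma adjusted p = 0.105) were larger in size than without the score. Those of NDUFS8 (-0.64, limma adjusted p = 0.179), ATP5MC2 (-0.98, limma adjusted p = 0.202) and UQCRQ (-0.34, limma adjusted p = 0.351) were smaller in size. COX5B had -0.53 (limma adjusted p = 0.176). The 9 VmT libraries fitted alone gave 0 member calls as well, but calls over all rows were not counted in that fit. The member count was 2 without the unresolved VmT library or without female 85889 (425 and 395 calls over all rows). It was 4 without female 85674, 85689 or 85899 in the VmT, for which calls over all rows are not given here. Of 16 citric acid cycle genes 15 were not called in the VmT. The transcript of citrate synthase (CS), which starts the cycle, was called higher during incubation (log2 fold change -1.22, limma adjusted p = 0.00342).

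**Figure D1:**
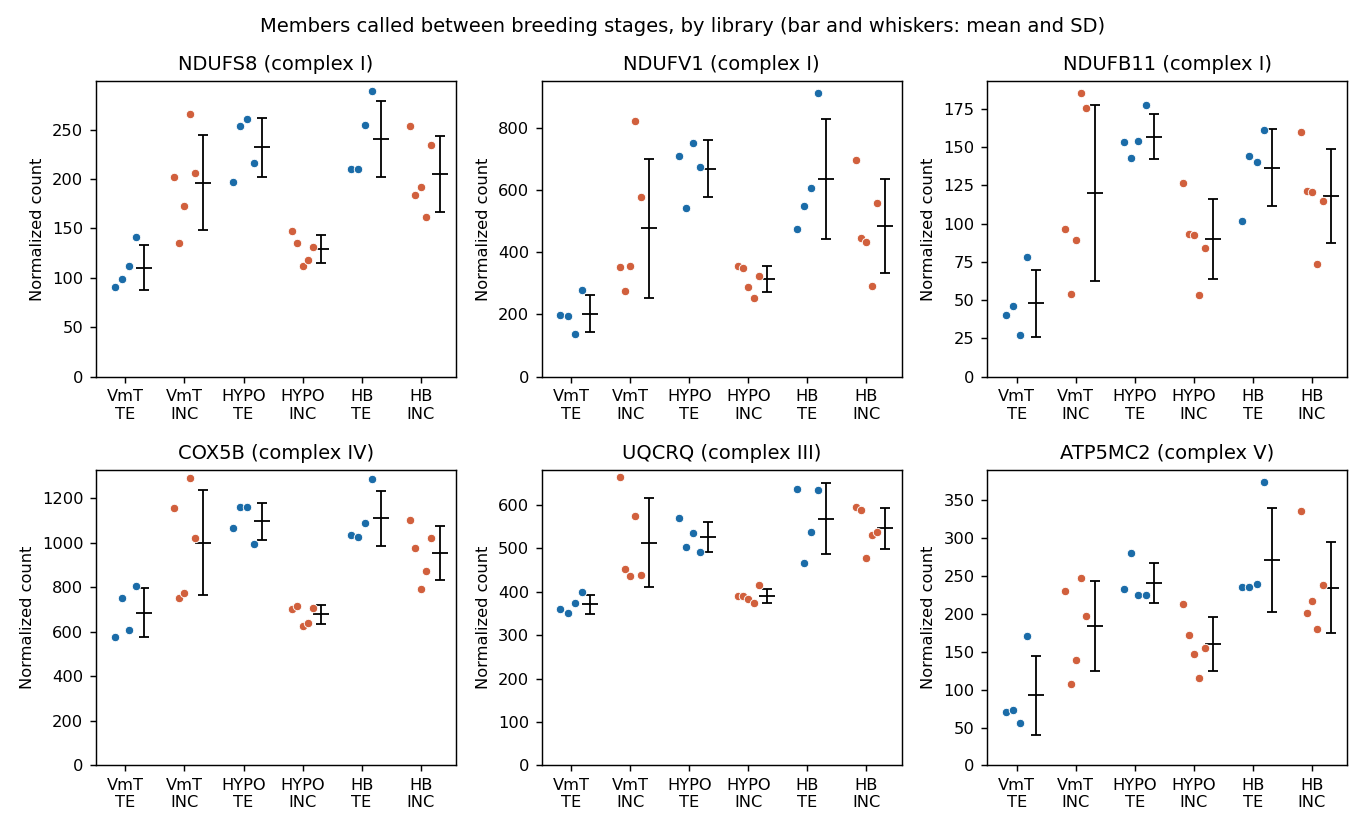
Normalized counts (vertical axis, starting at 0) of 6 members called between breeding stages, by group along the horizontal axis, with 1 point per library, 4 of TE (blue) or 5 of INC (orange) in each region, and bars and whiskers for the mean and SD. In the VmT the INC points lie mostly above the TE points (NDUFS8 90.5 to 141 and 135 to 266), and in the HYPO the order is turned round with no overlap (197 to 261 and 112 to 148).

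In the HYPO, 4 of the 84 members were called higher during territory establishment and 0 were called higher during incubation, against 0.293% and 0.221% of all rows, 0.514% in all. These were NDUFV1, NDUFS8 and NDUFA7 of complex I and COX5B of complex IV. In each of the 4, every library of TE lay above every library of INC. Without overlap and in this direction were 15 members, 14 of them with a mean of at least 50, while 3.74% of all rows were so.

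NDUFV1 had 709, 540.5, 749 and 673 normalized counts during TE and 355, 349, 288, 253 and 323 during INC. The lowest TE library was clear of the highest INC library, and the log2 fold change was 1.09 (standard error 0.26, limma adjusted p = 0.046). COX5B had 1064, 1161, 1161 and 993 during TE and 704, 717, 627, 637 and 705 during INC (log2 fold change 0.69, standard error 0.13, limma adjusted p = 0.0153).

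NDUFS8 had 197, 254, 261 and 216 during TE and 148, 135, 112, 118 and 131 during INC (log2 fold change 0.84, standard error 0.17, limma adjusted p = 0.0189). NDUFA7, an accessory subunit of complex I, had 295, 272, 357 and 312 against 204, 211, 156, 177 and 218 (log2 fold change 0.68, standard error 0.15, limma adjusted p = 0.0392). For NDUFS8 the SD during INC was 14.1 (n = 5) around a mean of 129, while its TE values ran from 197 to 261.

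Other members lay in the same direction without overlap and without being called. Among these were NDUFA1, NDUFA13, NDUFA8, NDUFB11, NDUFB4 and NDUFS5 of complex I, UQCR10 and UQCRQ of complex III and ATP5MC1 and ATP5MC2 of complex V. Of these NDUFB11 differed most, with 157 ± 14.6 during TE (SD, n = 4) and 89.9 ± 26.2 during INC (SD, n = 5), a log2 fold change of 0.84 (limma adjusted p = 0.162). UQCRB and ATP5F1A, both sparsely read, were the 2 members with every INC library above every TE library, as 1.82% of all rows had.

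Among members with a mean of at least 50, the largest differences towards incubation in the HYPO were those of MT-CO1 (log2 fold change -0.72, limma adjusted p = 0.191) and of the second row of NDUFV2 (-0.18, limma adjusted p = 0.7), and neither was called. Over all 84 members the median was 0.06, and 54 were above 0. Over the 65 with a mean of at least 50 the median was 0.14, and 49 were above 0, against a median of -0.01 over all rows. The direction of the middle of the group thus did not change with the sparsely read rows, whose own fold changes ran down to -2.84 for COX4I1.

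Single libraries moved the count of 4, and the calls over all rows with it. It was 0 without female 85840 or 85889 of INC or without 85689 or 85691 of TE, 1 without 85899 or 85694, 2 without 85674 and 14 (7 in each direction) without 85757. It was 2 without HB female 85774, 8 (4 in each direction) without HB female 85694 and 9 without VmT female 85757. It was 17 (8 higher and 9 lower) without the 3 libraries of female 85757, and 2 when the female was a replicate block. With that block NDUFV1 (limma adjusted p = 0.0691) and NDUFA7 (limma adjusted p = 0.0522) were not called. Calls over all rows, 100 in the fit of all libraries, were 20, 5, 11 and 6 without the 4 libraries that gave 0 and 784 without HYPO female 85757. For the other refits they are not given here, so those member counts cannot be set against the whole table.

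In the HB 0 of the 84 members were called by limma, edgeR or DESeq2, and 2 had an unadjusted limma p under 0.05. Over all rows limma called 1, or 0.00514%. No member had stages without overlap, where 0.719% of all rows had TE above INC and 0.734% INC above TE. Of the 84, 67 had a log2 fold change above 0, with a median of 0.09 (0.06 over the 65 with a mean of at least 50) against 0.01 over all rows. MT-CO1 had the largest difference towards TE among members with a mean of at least 50 (0.60), followed by NDUFV1 (0.41), with 474, 549, 605 and 911 during TE and 694, 445, 431, 291 and 556 during INC. The NDUFV1 values of the stages overlapped, with 3 of 5 INC libraries below the lowest of TE. The second row of NDUFV2 and ATPAF2, an assembly factor of the catalytic head of ATP synthase, had the largest differences towards INC, both -0.19.

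**Figure D2:**
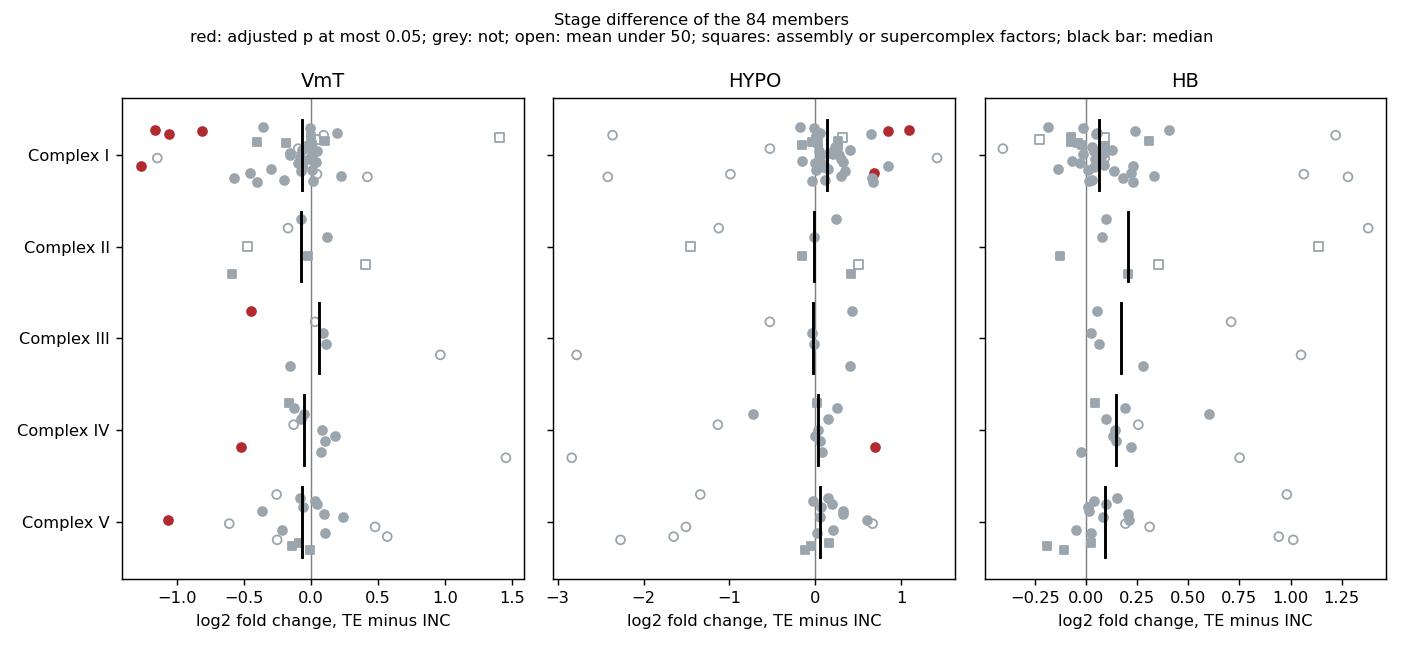
Log2 fold change, TE minus INC (horizontal axis, of its own scale in each panel), of the 84 members by complex (vertical axis) in the VmT, HYPO and HB, with red for adjusted p of at most 0.05, open symbols for a mean under 50, squares for assembly or supercomplex factors and a black bar for the median. The 7 called VmT members lie left of 0 and the 4 called HYPO members right of it, and no point is red in the HB.

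The difference between the stages was not the same in the VmT and the HYPO. The interaction contrast, the stage difference in the VmT minus that in the HYPO, called 15 members, against 5.95% of all rows. Of these, 13 had a contrast below 0 (5.28% of all rows) and 2 one above 0 (0.673%). All 13 were below 0 in the VmT and above 0 in the HYPO, though most of them were not called in each region by itself.

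Complex I gave 7 of the 13. NDUFV1 differed by -2.25 between the regions (standard error 0.36, limma adjusted p = 0.000327), NDUFB11 by -2.11 (adjusted p = 0.0023 by limma) and NDUFS8 by -1.65 (adjusted p = 0.000186 by limma). NDUFA13, NDUFA7 and NDUFA1, accessory subunits, differed by -1.24, -1.13 and -1.07. NDUFA1 had 76.5, 101, 85.9 and 109 in the VmT and 129, 157, 142 and 175 in the HYPO during TE. During INC it had 157, 87.0, 95.5, 147 and 142 in the VmT and 106, 109, 86.3, 76.3 and 93.5 in the HYPO. The regions were thus clear of each other during TE and overlapped during INC.

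The other complexes gave 1 to 3 each. SDHAF2, which helps to attach FAD to the catalytic subunit of complex II, differed by -0.998 (limma adjusted p = 0.0199), and was the only assembly factor among the 13. UQCRQ of complex III differed by -0.87 (limma adjusted p = 0.000913) and COX5B of complex IV by -1.21 (limma adjusted p = 0.000245). In complex V, ATP5MC2 differed by -1.67 (limma adjusted p = 0.0046), ATP5MC1 by -1.27 (limma adjusted p = 0.0159) and ATP5MF, subunit f of its membrane part, by -0.68 (limma adjusted p = 0.0386). ATP5MC3, the third c ring gene, was not called (0.19, limma adjusted p = 0.65). When the fit included the thalamus and midbrain score, this contrast called 10 members, all with the lower fold change in the VmT. The calls over all rows in that fit are not given here.

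The 2 with the higher fold change in the VmT were COX4I1 (4.29, limma adjusted p = 0.0151) and UQCRB, a subunit of complex III (3.75, limma adjusted p = 0.0476). Both rest on few reads, and edgeR called neither. COX4I1 had 1.87, 7.42, 7.52 and 6.82 during TE and 18.5, 0, 0, 2.35 and 0 during INC in the VmT. In the HYPO it had 4.91, 3.43, 0 and 1.29 during TE and 4.23, 16.2, 21.8, 39.7 and 36.4 during INC. With means of at least 50 required, the count was 12, all with the lower fold change in the VmT.

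Between the VmT and the HB the stage difference was called unlike for NDUFS8 (-1.05, limma adjusted p = 0.0397) and NDUFV1 (-1.57, limma adjusted p = 0.0443), 2 members against 0.437% of all rows. Between the HYPO and the HB it was called for 0 members by limma, and for 0% of all rows, by edgeR for 0 and by DESeq2 for 6, and limma called 7 members without HB female 85694 and 4 without HYPO female 85757. The VmT and HB count of 2 was 0 with edgeR, 4 with DESeq2, 4 when the female was a replicate block and 0 with the thalamus and midbrain score. Leaving out 1 library, it was 2 or 3 without HYPO female 85689, 85757 or 85889, VmT female 85757 or 85840 or HB female 85757, 5 without VmT female 85694 or 85774, and 0 or 1 without any other. Calls over all rows in these refits are not given here, so these counts are not set against the whole table.

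Regions were compared as the mean of both stages, over 9 libraries each. The hindbrain held the highest mean level, over both stages, in 70 of the 84 members, and in 63 of the 68 subunits. Among the member rows it was the highest region for all subunits of complexes II (3), III (6) and IV (10), for 14 of 15 of complex V and for 30 of 34 of complex I. Of the 16 assembly and supercomplex factors it was the highest for 7. How many of all rows were highest in the HB was not counted, so these counts have no share over all rows beside them. The regions come from the same females, and with the female as the block 61 members differed between the VmT and the HB, of 9461 rows in all, and 42 between the HYPO and the HB, of 3469.

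Against the HB, 53 members were lower in the VmT and 2 were higher, 55 in all, where 25.7% and 17.6% of all rows were called lower and higher, 43.4% in all. In the HYPO 32 members were lower than in the HB and 0 were higher, where 7.05% and 5.33% of all rows were, 12.4% in all. The median log2 fold change of the members was -0.34 for VmT minus HB and -0.31 for HYPO minus HB, against -0.08 and -0.04 over all rows. Lower in both were 27 members. Over the 65 members with a mean of at least 50 the medians were -0.28 and -0.30, with 42 and 31 called lower.

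By complex the subunits called lower in the VmT were 23 of 34 in complex I, 3 of 3 in complex II, 6 of 6 in complex III, 8 of 10 in complex IV and 11 of 15 in complex V. Their median log2 fold changes were -0.38, -0.50, -0.56, -0.36 and -0.40. In the HYPO the counts were 13, 2, 4, 5 and 6, with medians of -0.32, -0.34, -0.47, -0.38 and -0.33. The assembly and supercomplex factors had medians of -0.04 and -0.10, with 2 of 16 called lower and 2 higher in the VmT and 2 called lower in the HYPO.

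NDUFA4, which sits in complex IV although its name places it in complex I, was lower in the VmT and the HYPO than in the HB. It had 795, 691, 744 and 899.9 during TE and 1156, 775, 835, 788 and 750.4 during INC in the VmT, and 828, 1079, 924 and 987 and then 951, 799, 795, 738 and 732 in the HYPO. In the HB it had 1168, 1209, 1187 and 1504 and then 1200.4, 1180.2, 1013, 1089 and 1058. All 9 HB libraries exceeded all VmT libraries but that of female 85757, and the log2 fold change was -0.54 for VmT minus HB (standard error 0.08, limma adjusted p = 4.19e-06) and -0.44 for HYPO minus HB (limma adjusted p = 0.000376).

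The forms of cytochrome c oxidase subunits that tissues outside muscle use in mammals were highest in the HB too. COX7A2 was lower in the VmT (log2 fold change -0.37, limma adjusted p = 0.00373) and in the HYPO (-0.49, limma adjusted p = 0.00113), as was COX6A1 (-0.32 and -0.39, limma adjusted p = 0.029 and 0.0299). In complex II both SDHD, a membrane anchor, and SDHA, the catalytic subunit, were lower than in the HB. SDHD had -0.50 in the VmT (limma adjusted p = 4.23e-06) and -0.31 in the HYPO (limma adjusted p = 0.00527), and SDHA had -0.20 (limma adjusted p = 0.0458) and -0.34 (limma adjusted p = 0.00418).

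The other members with the highest mean in their complex did not all do the same. UQCRC1, a core protein of complex III, was lower in the VmT (-0.26, limma adjusted p = 0.0212) and the HYPO (-0.35, limma adjusted p = 0.00824), and ATP5F1C, the rotating gamma subunit of ATP synthase, likewise (-0.28 and -0.33). NDUFA6, an accessory subunit of complex I, missed the threshold in the VmT (-0.49, limma adjusted p = 0.0583) and the HYPO (-0.32, limma adjusted p = 0.37). SDHAF4, an assembly factor of complex II, had 0.08 and 0.12 and was not called.

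The largest differences from the HB were in small and in sparsely read rows. UQCR10, a small subunit of complex III, had a log2 fold change of -0.76 in the VmT (limma adjusted p = 3.44e-05) and -0.58 in the HYPO, and ATP5MF had -0.60 in the HYPO (limma adjusted p = 0.000103). COX4I1 (-2.35), UQCRB (-2.33) and ATP5F1B (-2.21) led in the VmT, and ATP5F1E, the epsilon subunit, led the called members in the HYPO (-1.35, limma adjusted p = 0.019). Of the 53 called lower in the VmT, 11 had a mean under 50.

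Higher in the VmT than in the HB were 2 rows of NDUFAF6, an assembly factor of complex I. The main row had 74.6, 64.0, 79.0 and 60.4 during TE and 71.4, 67.0, 60.8, 74.5 and 50.03 during INC in the VmT, and a log2 fold change of 0.36 (limma adjusted p = 0.0468). The third row was uneven within the VmT, with 39.2, 33.4, 109.7 and 20.5 during TE and 4.64, 3.53, 55.6, 133 and 4.45 during INC (1.90, limma adjusted p = 0.00712). In 3 VmT libraries of INC it was at or below 4.64, no higher than in much of the HB.

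The VmT and the HYPO differed in 7 members, 3 higher and 4 lower in the VmT, against 25.9% of all rows, so fewer members than rows at large. Higher were NDUFS5 (0.32), NDUFS3, a core subunit (0.30), and NDUFB10 (0.29), and among the lower were NDUFB11 (-0.73), ATP5MC2 (-0.67) and NDUFV1 (-0.63). The 4 lower ones are among those called between the stages in the VmT. The count was 15 (5 higher and 10 lower) when the female was a replicate block, 15 without the VmT library of female 85757, 12 without that of 85899 and 0 when the thalamus and midbrain score was included. That score ran from 6.53 to 7.19 in the HYPO, 5.34 to 6.28 in the HB and 4.41 to 6.57 in the VmT. It thus differed by region itself, so the fit with it cannot tell score from region. Calls over all rows in these refits are not given here.

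**Figure D3:**
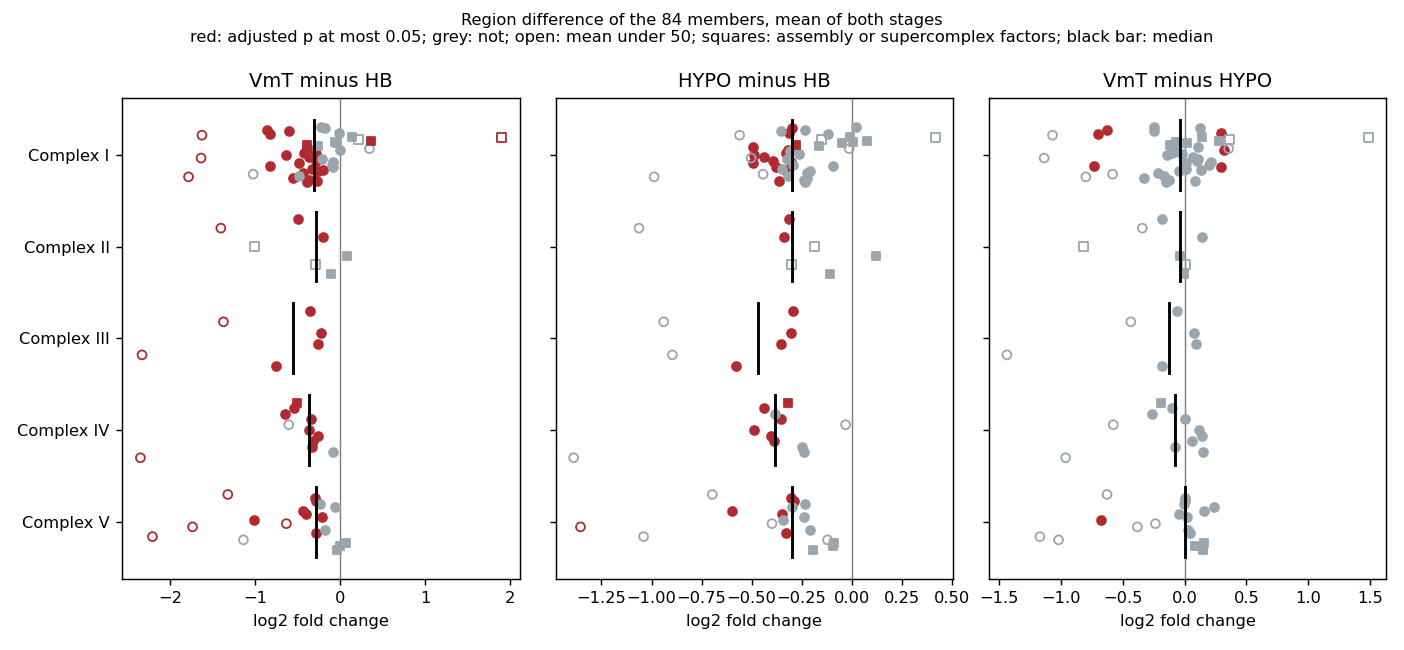
Log2 fold change between regions, mean of both stages (horizontal axis, of its own scale in each panel), of the 84 members by complex (vertical axis), with red for adjusted p of at most 0.05, open symbols for a mean under 50, squares for assembly or supercomplex factors and a black bar for the median. Called points lie left of 0 for VmT minus HB (53 of 55) and HYPO minus HB (32 of 32), while 7 are called for VmT minus HYPO.

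Markers of several other cell types were also highest in the HB. Oligodendrocyte genes (7 of 10 measured) summed to between 36676 and 57433 normalized counts in the HB, 20770 and 40224 in the HYPO and 10570 and 20362 in the VmT, and all 7 were called lower in the VmT than in the HB. Astrocyte genes summed to between 41983 and 49114 in the HB and 27582 and 38807 in the VmT, with 5 of 8 called lower and 1 higher in the VmT, and of 10 neuron genes 7 were lower and 2 higher in the VmT (median -0.44). Red blood cell genes (4 of 12 measured) overlapped, at 2665 to 6838 in the HB and 2664 to 8445 in the VmT. Their part in the region differences was not tested. In the citric acid cycle 10 of 16 genes were called lower in the VmT and 9 lower in the HYPO than in the HB (medians -0.30 and -0.24), and in glycolysis 13 and 8 of 15 (medians -0.52 and -0.27), where 25.7% and 7.05% of all rows were. Genes of mitochondrial biogenesis and DNA maintenance lay near those shares, with 3 lower and 2 higher of 12 in the VmT and 1 lower in the HYPO (medians -0.09 and -0.03).

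The level of each complex in a library was summed up as the mean, over its subunit rows with a mean of at least 50, of the log2 value minus the mean of that row over all libraries. For complex I (29 rows) this was -0.26 ± 0.15 in the VmT during TE (SD, n = 4) and -0.02 ± 0.24 during INC (SD, n = 5). In the HYPO it was 0.07 ± 0.13 and -0.22 ± 0.08, and in the HB 0.26 ± 0.06 and 0.18 ± 0.14. The HYPO lay lower during INC without overlap, its lowest TE library being at -0.05 and its highest INC library at -0.13. Over all 34 subunit rows of complex I, sparsely read ones included, the HYPO libraries overlapped. They then lay at -0.08 to 0.05 during TE and at -0.20 to 0.05 during INC.

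For complexes II to V the HB was again the highest, with TE means of 0.27, 0.32, 0.34 and 0.26. The HYPO had TE means of -0.04, -0.02, -0.09 and -0.0007 and INC means of -0.15, -0.21, -0.15 and -0.19. Over all subunit rows of these complexes, sparsely read ones included, the order of the HYPO means was turned round. They were then -0.29, -0.29, -0.27 and -0.21 during TE and 0.005, 0.13, 0.08 and 0.07 during INC. The VmT library of female 85757 was the highest of the VmT libraries of INC in every complex, at 0.37, 0.25, 0.37, 0.49 and 0.49 for complexes I to V. Without it the INC means of the VmT were -0.12 ± 0.11, -0.23 ± 0.01, -0.20 ± 0.08, -0.24 ± 0.05 and -0.19 ± 0.07 (SD, n = 4). For complexes II to V these lie below the TE means of -0.11, -0.18, -0.13 and -0.18, while for complex I the mean of those 4 libraries stayed above the TE mean.

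**Figure D4:**
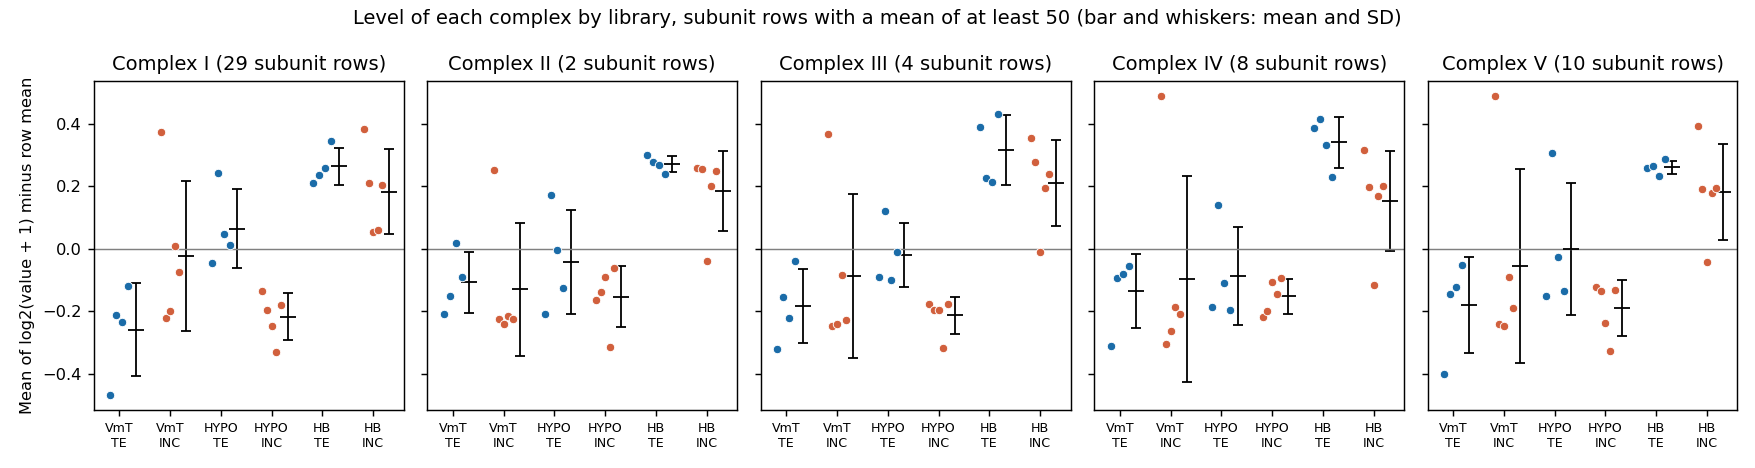
Level of complexes I to V (panels) in each library, as the mean of log2(value + 1) minus the row mean over subunit rows with a mean of at least 50 (vertical axis), by group along the horizontal axis, with bars and whiskers for the mean and SD of 4 (TE) or 5 (INC) libraries. The HB group means lie above 0 in every panel, and the VmT library of female 85757 lies 0.25 to 0.49 above 0.

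Of the sparsely read subunit rows 12 of 15 had their highest value in 1 of 4 libraries, HB females 85674 and 85689 of TE and HYPO females 85889 and 85899 of INC, while NDUFB7 and ATP5MC1 peaked in HB female 85694 during TE and NDUFS6 in VmT female 85889. Summed over the 15 subunit rows with a mean under 50, they came to 374, 359 and 278 in the HB libraries of females 85689, 85674 and 85691 during TE, but to 174 in that of female 85694. In the HYPO the sum was 298 and 294 in females 85889 and 85899 during INC, against 81.7 in female 85757. In the VmT, female 85757 had 207 and female 85774 had 54.1, the lowest of all libraries.

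MT-CO1 followed the same libraries. Its normalized counts during TE in the HB were 25509, 33706, 19527 and 8549, and during INC 12026, 12034, 11262, 12411 and 17203. In the HYPO they were 9566, 10179.6, 10150.4 and 8019.8 during TE and 8874, 12028, 18163, 20645 and 22739 during INC. The 5 libraries with the highest sums of sparsely read rows were also the 5 with the highest MT-CO1.

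In the VmT MT-CO1 had 10964, 10480.2, 9993 and 8427 during TE and 15684, 9462, 9483, 8259 and 9709 during INC. Female 85757 again stood above the rest. MT-CO1 was lower in the VmT than in the HB (log2 fold change -0.65, limma adjusted p = 0.00781), and was called in no stage comparison (limma adjusted p = 0.965 in the VmT, 0.191 in the HYPO and 1 in the HB).

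**Figure D5:**
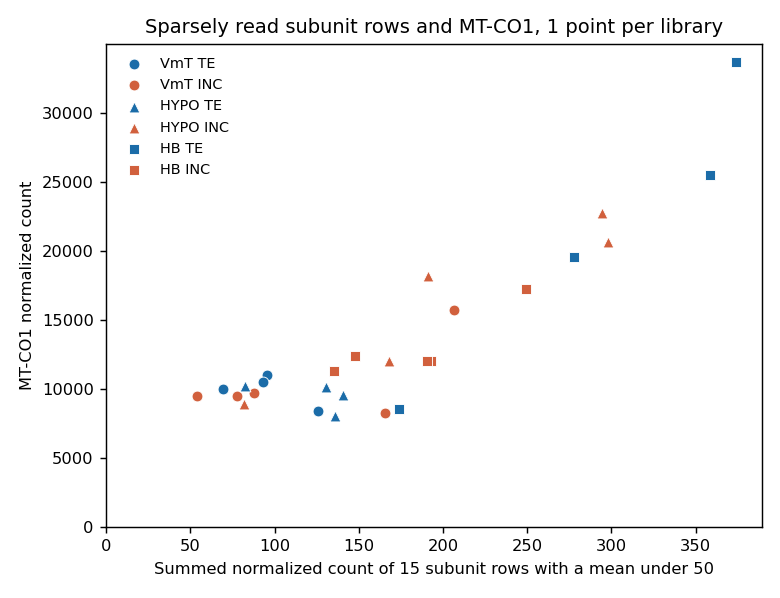
Normalized count of MT-CO1 (vertical axis) against the summed normalized count of the 15 subunit rows with a mean under 50 (horizontal axis), 1 point per library, with the shape for the region and the color for the stage. The highest points are 3 HB libraries of TE (sums 278 to 374) and 2 HYPO libraries of INC (294 and 298), and the fourth HB library of TE lies with the rest at 174.

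Genes that work around the chain were counted against the same shares of all rows, 3.53% in the VmT, 0.514% in the HYPO and 0.00514% in the HB, at which lists of this size hold few calls or none. Of 38 measured assembly factors 0 were called in the VmT, the HYPO or the HB by limma, with median log2 fold changes of -0.02, 0.07 and 0.02. Some of these factors are also members and were counted above. Of 13 genes for electron carriers and coenzyme Q, 12 of mitochondrial biogenesis, 8 membrane carriers and 9 antioxidant enzymes, 0 were called in any of the 3 regions. The score of the biogenesis genes in the VmT lay between 6.84 and 6.98 during TE and between 7.01 and 7.21 during INC. In glycolysis 2 of 15 were higher during incubation in the VmT, the aldolases ALDOA (log2 fold change -2.65, limma adjusted p = 0.00201) and ALDOC (-0.72, limma adjusted p = 0.000824), and in the citric acid cycle 1 of 16, CS. The same ALDOC row is also in the astrocyte list, whose sums are given above.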

How the data were processed

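RNA of each sample was made into stranded poly(A) libraries and read as short pairs. Per the labels and methods, the authors trimmed reads with Trimmomatic 0.36, aligned them with Bowtie2 2.3.4.1 to their tree swallow transcriptome, kept proper pairs with SAMtools 1.3.1, counted reads per transcript and removed transcripts with few reads. A read of a short or split transcript counts only for the row it was aligned to. The deposited values, treated as a signal per transcript, are whole reads divided by 1 size factor per library: 100% of low values were whole multiples of 1 step (tolerance 0.1). The labels list 30 samples, and 3 were not analysed here.

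Stages and regions were compared with limma 3.58.1 (R 4.3.3, trended prior) on log2(value + 1) in 1 fit of the 6 groups, with Benjamini-Hochberg adjustment over the 19473 rows that reached 1 in 4 or more libraries. The study used a count model, and edgeR 4.0.16 and DESeq2 1.42.0 on the recovered reads were alternatives. Female numbers pair the regions (within-female correlation 0.205). Replicates are separate females. The fits were tested on simulated data. Figures were drawn with matplotlib from Python. Members and gene lists were chosen with earlier results of these data known. The values of 1 member, counted in the totals, are not reported here. Named members were those called in a stage or interaction contrast, the highest row of each complex, the 3 largest called changes per region contrast and direction, the 2 largest stage differences per region and direction with a mean of at least 50, tissue forms, c ring genes, complex II subunits and mitochondrially encoded rows.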

Additional observations from a re-analysis of the deposited data

Results flagged for a closer look

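Dixon's criterion was applied to 114 groups of 4 or 5 libraries, over 14 members and the levels of the 5 complexes. For independent groups of normal values it flags about 1 in 20 by chance. The groups here share libraries, and the members were called in these same data, so that rate does not apply to them. In 14 groups a library lay far from the others by this criterion. ATP5MC2 had such a library in every TE group, at 171 in the VmT, 279.9 in the HYPO and 374 in the HB. COX4I1 had 1.87 during TE and 18.5 during INC in the VmT, and UQCRB had 16.7 in the VmT and 19.5 in the HB during INC. The level of complexes II, III, IV and V was 0.25, 0.37, 0.49 and 0.49 in 1 VmT library of INC, that of female 85757. The level of complex II was -0.037 in 1 HB library of INC, that of complex III -0.32 in 1 HYPO library of INC and that of complex IV -0.31 in 1 VmT library of TE.

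The stage difference was unlike between the VmT and the HYPO, by limma's interaction contrast, in NDUFV1 (-2.25), NDUFB11 (-2.11), ATP5MC2 (-1.67), NDUFS8 (-1.65), ATP5MC1 (-1.27), NDUFA13 (-1.24), COX5B (-1.21), NDUFA7 (-1.13), NDUFA1 (-1.07), SDHAF2 (-0.998), UQCRQ (-0.87), ATP5MF (-0.68), UQCRB (3.75) and COX4I1 (4.29). Between the VmT and the HB it was unlike in NDUFV1 (-1.57) and NDUFS8 (-1.05).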

How the results depend on the processing

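Under the alternatives, 1004 of 1184 refits of a called stage or interaction value kept direction and call, 180 kept the direction only and 0 turned round. The refits share most or all of their libraries with the fit that gave the calls. Leaving out a library of another region cannot change the fold change of a region's stage contrast, so the kept direction says little. Counts of called members that moved by over 1.5 times were as follows, and the cause was not tested. Calls over all rows under the same settings are not set beside these counts or the ranges for single libraries below. A change in the members is thus not told apart from one over the whole table. The VmT stage count of 7 was 4 with array weights, 4 with the sum of all rows with a mean under 50 as a covariate and 0 with the thalamus and midbrain score or with the region alone. The HYPO stage count of 4 was 10 with DESeq2 (7 higher and 3 lower), 11 with array weights (6 higher and 5 lower), 2 with a mean of at least 50, 2 with no trend, 2 with the female as a replicate block and 17 without the 3 libraries of female 85757, an alternative chosen after seeing the data. The VmT and HB stage contrast (2) gave 4 with DESeq2, 4 with the replicate block, 5 with the block when the unresolved library was taken as 85691 (chosen after seeing the data), and 0 with edgeR, TMM, quantile normalization, array weights, no trend or either covariate. The HYPO and HB stage contrast (0) gave 6 with DESeq2, 5 with array weights and 7 without female 85757. VmT against HYPO (7) gave 13 with array weights, 15 with the replicate block, 14 with the block and the unresolved library as 85691, 11 with quantile normalization, 17 without female 85757 and 0 with the score, and HYPO against HB (32) gave 12 with the score. The score nearly followed stage in the VmT and did not overlap between the HYPO and the HB. Counts with it therefore cannot tell score from stage or region. The block changed no other count by over 1.5 times.

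Leaving out 1 library at a time gave 2 to 8 in the VmT, 0 to 14 in the HYPO, 0 to 0 in the HB, 12 to 18 for VmT and HYPO stages, 0 to 5 for VmT and HB stages, 0 to 7 for HYPO and HB stages, 5 to 15 for VmT against HYPO, 44 to 61 for VmT against HB and 24 to 40 for HYPO against HB. Reads limit the 8 members with a mean under 5, where a zero may be a missed read.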
